A study of Arabidopsis thaliana with 24 samples.

Results

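The ERF and DREB transcription factors of Arabidopsis thaliana were followed across all 24 RNA-seq libraries of the series. The members were the rows of the deposited gene table whose description reads Ethylene-responsive transcription factor or Dehydration-responsive element-binding protein, and 95 of the 33044 rows met this. The column for the transcription factor family held protein domain names, so that 0 rows named ERF or EREBP there. The descriptions were therefore read for every row, since rows with an empty entry alone would have given 3 members. The domain entry was AP2 for 92 of the 95 members, and 47 further AP2 rows carried other descriptions and were not counted as members, among them well-known family genes such as DREB1B (CBF1), DREB2C, ERF2 and CRF6.

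The plants were Col-0, the wild type, and dpe2/phs1, a double mutant made by crossing. The mutant lacks DPE2, a disproportionating enzyme of the cytosol, and PHS1, a glucan phosphorylase of the plastid, both of starch metabolism. Shoots were taken 3 weeks after germination, in the Prior Period (dP for dpe2/phs1 and wP for Col-0), and 7 weeks after germination, in the Recovery Period (dR and wR). At 5 weeks young leaves with petioles (dY and wY) and mature leaves with petioles (dM and wM) were taken separately. Each group had 3 libraries of untreated plants. Leaf tissue and whole shoots were not sampled at the same age, so that tissue and period cannot be told apart between them.

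Proteins of this family bind DNA through an AP2 domain. The ERF branch is known for binding the GCC box of defence genes and includes activators and repressors, while the DREB branch is known for binding the dehydration-responsive element (DRE) of genes that protect cells from cold and drought. In leaves the genes of many of these factors are themselves switched on within a short time by wounding, cold, oxidants, ethylene or jasmonate, and the group VII factors are known for regulation through the stability of the protein.

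Libraries held 17504383 to 27859805 reads, and 3 reads on a transcript of 1 kb equalled 0.108 to 0.171 FPKM (fragments per kilobase of transcript and per unit of sequencing depth). The knocked-out genes gave 41.7 to 46 FPKM of DPE2 in dP and 83.9 to 112 FPKM in wP, and likewise did not overlap in young and mature leaves. In the Recovery Period they did overlap, with 34.6 to 38.3 FPKM of DPE2 in dR and 19.1 to 39.1 FPKM in the libraries labelled wR, and with 20.3 to 24.6 FPKM of PHS1 in dR and 15.2 to 36.2 FPKM in the libraries labelled wR. These transcripts therefore did not separate the genotypes there, and every direction for dR against Col-0 below rests on libraries labelled wR. Of 6 floral markers 0 passed the filter, with sums of at most 1.61 FPKM in any library, and the sum of 5 leaf markers was 17844 to 19805 FPKM in dM and 32734 to 33949 FPKM in wM. It was also lower without overlap at 24230 to 25601 FPKM in dY against 28510 to 33701 FPKM in wY and at 28424 to 29534 FPKM in dP against 31784 to 40698 FPKM in wP, and it overlapped in the Recovery Period. Single leaf markers did not all follow the sum. By the test described below, 2 of the 5 were higher and 3 lower in dP, with 1 and 3 in dY, 1 and 4 in dM, and 1 and 1 in dR. The shares of all genes are given below. Whether the lower sums had a part in the values of the members was not tested. In bulk tissue fewer cells of a type and less RNA per cell cannot be told apart.

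Of the 95 members, 69 reached a mean of 1 FPKM in at least 1 group and were tested, 26 did not, and 4 of these (ABI4, ERF019, ERF105 and ERF087) were listed at 0 in every library. A difference is given as a log2 fold change on log2(FPKM + 1) with its standard error, and was called at an adjusted p under 0.05 in a limma fit over all 19575 genes that passed the filter. Against Col-0 more of these members were higher than lower in the mutant at 3 and 5 weeks. In dP 29 of 69 members were called higher and 2 lower than in wP, where 24.3% of all tested genes were higher and 14.9% lower. In dY the counts were 47 higher and 9 lower, against 34.6% and 19.1% of all genes. In dM they were 36 higher and 19 lower, against 36.6% and 32.5% of all genes. After the dependence of expression on gene length was taken out, the counts were 26 higher and 6 lower in dP, against 22% and 20.6% of all genes, and 36 higher and 13 lower in dY, against 26.8% and 30.6%. In dM they were then 31 higher and 24 lower, against 35.6% and 35.9% of all genes, with a median of the members of 0.168 in place of 0.437. The median was 0.0809 in dP and 0.425 in dY after this step. Without it the median log2 fold change of the members was 0.192, 0.641 and 0.437 in P, Y and M, and that of all tested genes was 0.0581, 0.153 and 0.0481. In the Recovery Period the balance lay the other way, with 13 members higher and 29 lower in dR than in the libraries labelled wR, against 31.6% and 25.2% of all genes, and a median of -0.184.

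**Figure D1:**
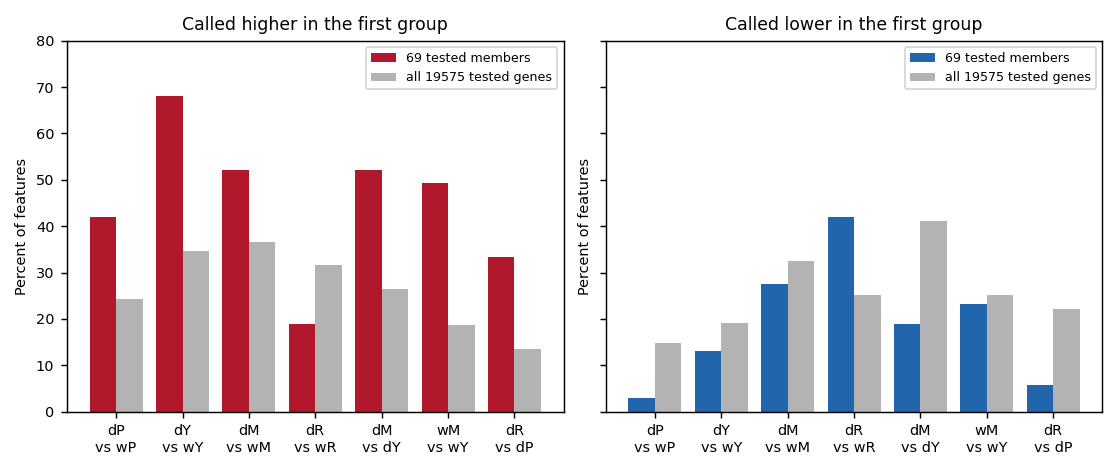
Percent of the 69 tested members (coloured bars) and of all 19575 tested genes (grey bars) that were called higher (left) or lower (right) in the first of the groups compared, for 7 comparisons. In dY against wY 68.1% of the members were higher and 34.6% of all genes, while in dR against wR 42% of the members were lower and 25.2% of all genes.

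Not a single profile covered the family. Across P, Y and M, which share no library, 18 members were called higher in each, where 11.4% of all genes were, and 0 were called lower in each. A separate set of 13 members was higher in dY than in wY and lower in dM than in wM, a combination held by 3.84% of all tested genes, and 2 members had the opposite combination, held by 1.63%. In the set of 13, ERF109 and DREB1F passed the filter through wM alone. Of the tested members 1, DREB2F, was called in none of the 4 comparisons of the genotypes, where 6.1% of all genes were, and 17 were called in all 4, where 12.5% of all genes were.

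**Figure D2:**
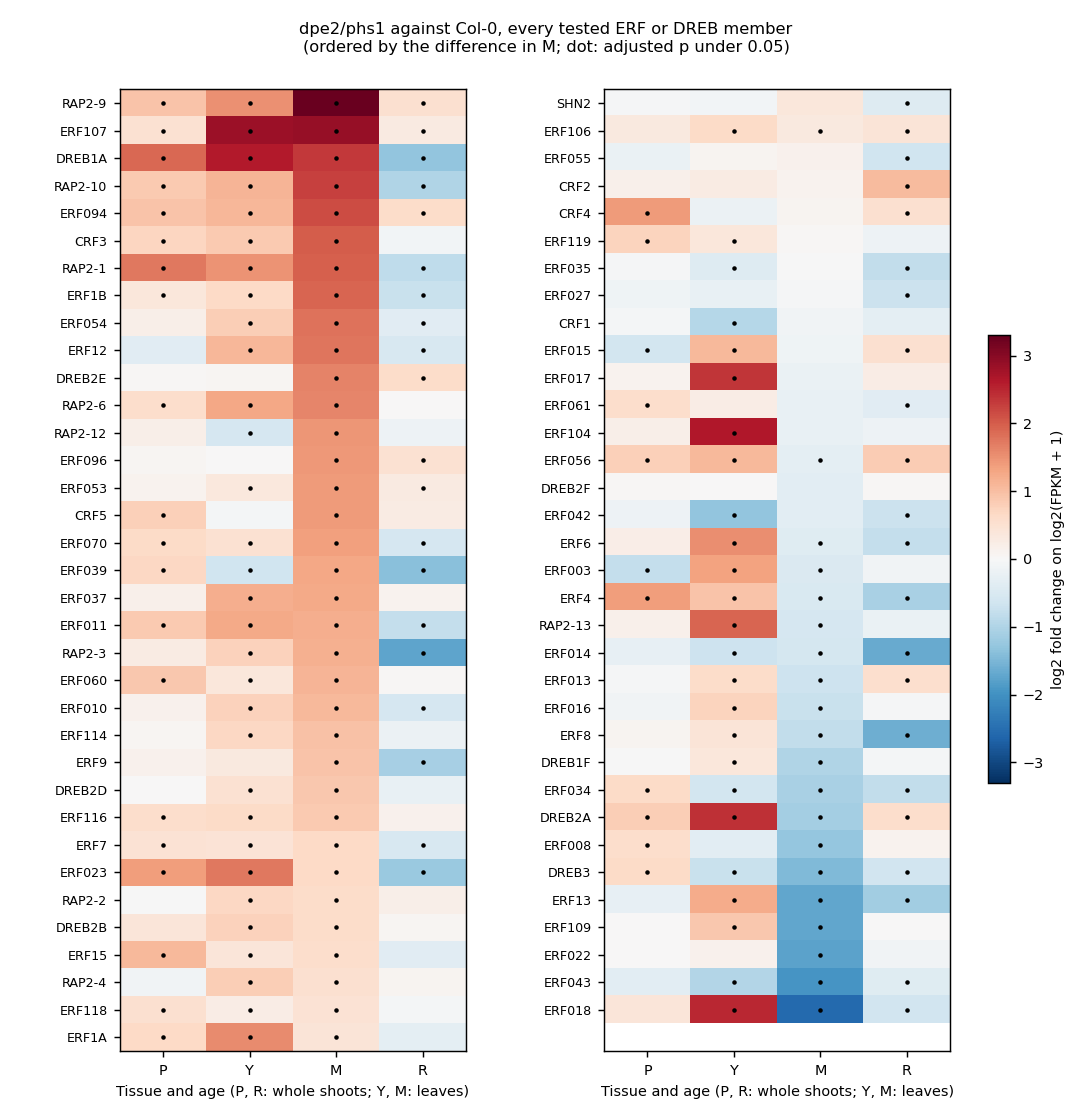
Log2 fold change of dpe2/phs1 against Col-0 (colour, red for higher in dpe2/phs1 and blue for lower) for each of the 69 tested members in P, Y, M and R, with members ordered by the value in M and a dot where the adjusted p was under 0.05. Blue cells with a dot number 2 in P and 9 in Y, and 29 in R.

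Sequences upstream of members are shown because the sets described below differ between the genotypes in unlike ways. They are given for only some of the members with known binding letters, picked by these letters, in part together with their calls. Other members with such letters, among them ERF017, RAP2-6 and ERF1A, are not shown. Windows of 250 bases before the annotated start of each gene were read from RefSeq's TAIR10.1 assembly, in which the start and end of all 95 members equalled those of the deposited table. The G box (CACGTG) occurred in 15 of 95 members, 15.8%, and in 6.49% of the windows of 27443 protein-coding genes, with both strands searched. The GCC box (GCCGCC) occurred in 4.21% of members and 1.87% of all windows. Of the DRE spellings, ACCGAC occurred in 2.11% of members and 4.7% of all windows, and GCCGAC in 5.26% and 2.56%. For CGCGTT the shares were 4.21% and 2.59%, for the W box spelling TTGACC 10.5% and 12.2%, and for the evening element AAAATATCT 3.16% and 2.36%. A window with both a GCC box and a G box was found for 3 members and for 54 of the 27443 genes. In ERF094 and ERF15 these letters lay 36 bases apart, and in DREB2D 56 bases apart. All 3 members were called higher in both dY and dM, as were 30 of the 69 tested members. Of all genes 34.6% were higher in dY and 36.6% in dM. The share higher in both was not computed, so the count of 30 has no such measure beside it. Their windows, 5′ to 3′ on the strand of the gene, follow with the matches in capitals (ERF094 chr1:1882657-1882906, plus strand; ERF15 chr2:13307573-13307822, minus strand; DREB2D chr1:28335252-28335501, plus strand).
ERF094: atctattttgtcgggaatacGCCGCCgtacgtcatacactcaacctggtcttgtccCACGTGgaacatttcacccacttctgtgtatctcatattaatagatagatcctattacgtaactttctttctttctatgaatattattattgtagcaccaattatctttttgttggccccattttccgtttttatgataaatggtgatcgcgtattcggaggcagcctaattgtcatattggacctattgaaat
ERF15: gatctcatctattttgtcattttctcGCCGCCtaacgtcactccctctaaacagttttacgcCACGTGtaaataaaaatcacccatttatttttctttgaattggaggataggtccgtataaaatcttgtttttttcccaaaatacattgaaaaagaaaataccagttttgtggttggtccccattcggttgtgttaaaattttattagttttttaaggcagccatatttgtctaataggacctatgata
DREB2D: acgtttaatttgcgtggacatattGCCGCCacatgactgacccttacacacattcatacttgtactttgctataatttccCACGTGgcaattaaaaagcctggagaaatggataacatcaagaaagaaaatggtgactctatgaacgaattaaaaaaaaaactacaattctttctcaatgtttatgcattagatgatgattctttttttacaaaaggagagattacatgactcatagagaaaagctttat

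ERF109 and ERF4 are shown because a G box stood in their windows, 134 and 64 bases before the start, and both were higher in dY and lower in dM (ERF109 chr4:16451626-16451875 and ERF4 chr3:5121053-5121302, both plus strand). RAP2-10 and ERF011 are shown because the letters GCCGAC, on either strand, stood 56 and 28 bases before the start of these members of the DEAR and A-5 group, which were both called higher in dP, dY and dM and lower in dR (RAP2-10 chr4:17388399-17388648 and ERF011 chr3:18634296-18634545, both plus strand). The G box occurred in 2 of the 13 members higher in dY and lower in dM, 15.4%, and in 15.9% of the tested members. It occurred in 23.3% of the 30 members higher in both dY and dM. GCCGAC occurred in 2 of the 18 members higher in dP, dY and dM, 11.1%, and in 5.8% of the tested members. A match of these letters is a description of the window, and binding was not measured.
ERF109: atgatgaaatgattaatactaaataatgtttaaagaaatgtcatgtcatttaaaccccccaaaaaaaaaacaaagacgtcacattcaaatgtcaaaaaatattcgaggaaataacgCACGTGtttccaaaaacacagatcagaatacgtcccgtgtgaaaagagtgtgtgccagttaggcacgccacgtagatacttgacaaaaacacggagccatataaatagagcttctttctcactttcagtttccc
ERF4: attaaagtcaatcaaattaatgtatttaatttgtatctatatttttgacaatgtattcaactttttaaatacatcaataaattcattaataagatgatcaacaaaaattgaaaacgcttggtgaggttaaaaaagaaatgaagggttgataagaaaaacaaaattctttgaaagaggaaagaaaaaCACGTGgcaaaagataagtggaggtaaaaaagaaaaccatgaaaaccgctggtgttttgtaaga
RAP2-10: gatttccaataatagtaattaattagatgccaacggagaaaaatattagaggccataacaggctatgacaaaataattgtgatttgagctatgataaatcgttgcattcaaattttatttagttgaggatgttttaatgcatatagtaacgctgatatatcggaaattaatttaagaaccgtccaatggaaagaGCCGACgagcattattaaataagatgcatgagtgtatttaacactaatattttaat
ERF011: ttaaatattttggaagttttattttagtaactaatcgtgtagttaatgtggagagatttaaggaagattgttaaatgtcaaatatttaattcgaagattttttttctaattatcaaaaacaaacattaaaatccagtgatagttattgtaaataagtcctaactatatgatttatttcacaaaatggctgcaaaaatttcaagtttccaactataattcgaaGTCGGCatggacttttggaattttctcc

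The question put to the leaves at 5 weeks was whether the genotypes differ alike in young and in mature tissue. The difference in M minus the difference in Y was called larger for 18 of 69 members, or 26.1%, and smaller for 22, or 31.9%, and the shares of all genes were close to these, at 20.8% and 27.9%. The most negative values of this contrast were those of ERF018, DREB2A, ERF13, ERF104 and ERF109. In Col-0 these were low in young and high in mature leaves, and in dpe2/phs1 the leaves of both ages lay between these levels.

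ERF018 (ORA47), an activator of jasmonate synthesis genes, had 18.6, 11.1 and 12.2 FPKM in dY, against 1.65, 1.46 and 1.72 FPKM in wY. In mature leaves it had 11.7, 9.7 and 18.6 FPKM in dM, against 77.4, 82.5 and 82.7 FPKM in wM. All libraries of dY were above those of wY and all of dM below those of wM, while dY and dM overlapped. The log2 fold change was 2.48 ± 0.22 in Y and -2.56 ± 0.22 in M, and the contrast between them was -5.05 ± 0.31 (adjusted p = 3.03e-11). DREB2A, a DREB activator of drought and heat genes, had 15.4, 14.4 and 11.6 FPKM in dY, against 2.04, 1.4 and 1.86 FPKM in wY. It had 10.2, 8.07 and 10.1 FPKM in dM, against 22.4, 24.7 and 18.6 FPKM in wM. Again neither pair of groups overlapped, and mutant leaves of both ages lay between the Col-0 groups, with a contrast of -3.55 ± 0.26 (adjusted p = 6.25e-10).

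ERF109, a redox-responsive factor of group X, was listed at 0 in all libraries of wY and had 1.32, 0.556 and 0.779 FPKM in dY. Against a floor of 3 reads over the libraries of wY together this was at least 25.6-fold higher. In mature leaves ERF109 had 0.594, 0.907 and 0.336 FPKM in dM, against 4.28, 4.08 and 4.35 FPKM in wM, and wM stood apart from every other group, as ERF109 was at or near 0 in P and R of both genotypes. ERF016 was likewise at 0 in wY, with 1.04, 0.531 and 0.512 FPKM in dY, which was at least 22.2-fold higher, and with 0.906, 1.53 and 0.946 FPKM in dM, against 2.65, 2.18 and 2.74 FPKM in wM. DREB1F (DDF1), a factor known for salt tolerance and gibberellin breakdown, was the lowest of this set, with 0.255, 0.151 and 0.518 FPKM in dY, 0 in wY, 0.136, 0.352 and 0.319 FPKM in dM, and 1.07, 2.07 and 1.45 FPKM in wM. ERF109 and DREB1F passed the filter through wM alone, so that their differences in M and between M and Y are descriptions.

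ERF13, a group IX activator, had 6.49, 5.34 and 5.38 FPKM in dY, against 1.64, 2.46 and 1.67 FPKM in wY. It had 5.04, 5.13 and 3.35 FPKM in dM, against 15.5, 16.7 and 18.2 FPKM in wM, and its contrast of -2.92 ± 0.26 came from log2 fold changes of 1.21 ± 0.18 in Y and -1.71 ± 0.18 in M. RAP2-13, of the RAP2.4 group, had 37.7, 28.4 and 27.1 FPKM in dY and 8.44, 7.12 and 6.59 FPKM in wY. In M the groups lay closer, with 31, 39.5 and 34.5 FPKM in dM and 49.9, 50.6 and 53.9 FPKM in wM. ERF6, a growth repressor under osmotic stress, showed the same order, with 9.14, 9.72 and 11.1 FPKM in dY and 2.17, 4 and 2.5 FPKM in wY, and with 14.4, 16.6 and 14.5 FPKM in dM and 19.4, 19.5 and 22 FPKM in wM. The rest of the 13 were ERF003, ERF4, ERF8, ERF013 and ERF056, with values of the contrast from -1.81 to -1.24. Of these ERF4 and ERF8 are repressors with an EAR motif, and each had 1 pair of groups whose libraries overlapped, ERF4 in M and ERF8 in Y.

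**Figure D3:**
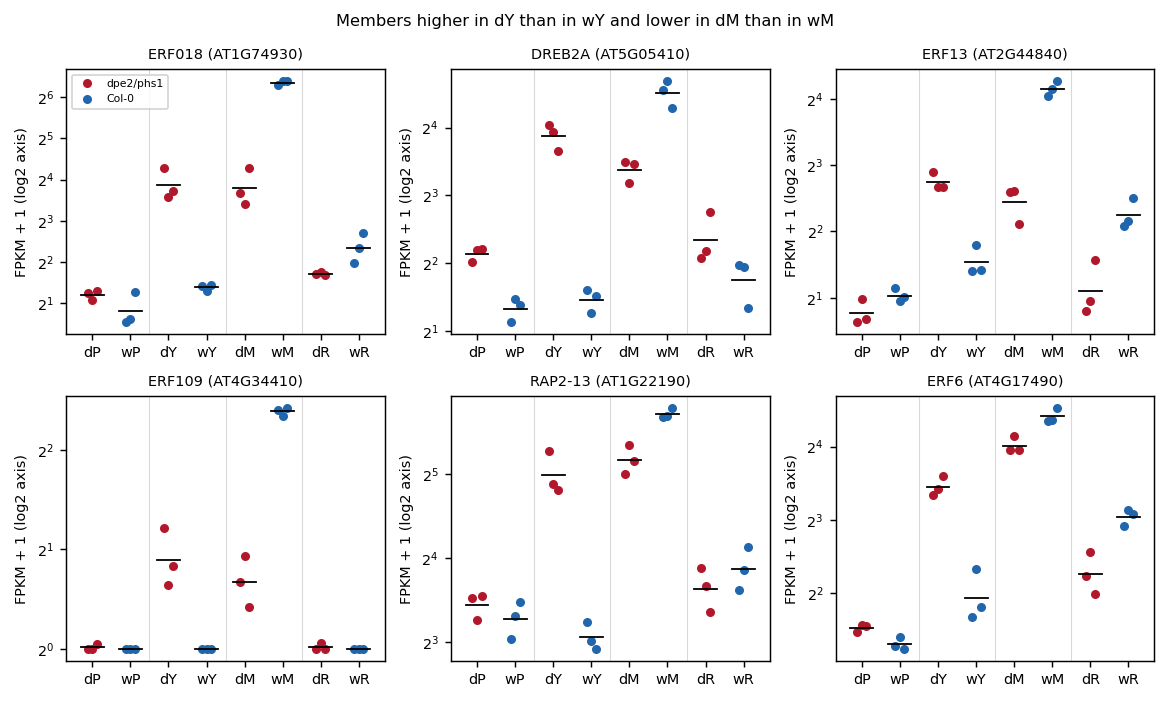
FPKM + 1 of ERF018, DREB2A, ERF13, ERF109, RAP2-13 and ERF6 in each library (points, log2 axis) with the mean on the log scale (line), for dpe2/phs1 (red) and Col-0 (blue) in P, Y, M and R. In each panel wM is the highest group and wY lies far below it, while dY and dM lie between them.

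Other members with a negative contrast were higher in dY and not lower in dM. ERF104, a group IX factor of the response to bacterial flagellin, had 38.7, 32.6 and 34 FPKM in dY, against 6.03, 4.06 and 4.46 FPKM in wY, and 63.2, 59.5 and 63.3 FPKM in dM, against 70.4, 70.1 and 79.7 FPKM in wM. Its log2 fold change was 2.64 ± 0.14 in Y and -0.24 ± 0.14 in M (adjusted p = 0.136), with a contrast of -2.88 ± 0.20, and dY stayed below dM. ERF017 likewise had no called difference in M, with 7.48, 4.45 and 4.16 FPKM in dY, 0.194, 0.255 and 0.202 FPKM in wY, 5.69, 4.47 and 6.53 FPKM in dM, and 6.9, 5.9 and 7.12 FPKM in wM. ERF1A, a GCC box activator, was called higher in both, by 1.56 ± 0.15 in Y and 0.44 ± 0.15 in M. Its libraries held 16.1, 11.5 and 12.8 FPKM in dY and 4.12, 3.4 and 4.14 FPKM in wY, and 42, 40.7 and 50.3 FPKM in dM and 34.5, 32.9 and 29.8 FPKM in wM. ERF1A lies 5041 bases from ERF6 on chromosome 4, and this neighbouring pair thus had called differences of unlike sign in M.

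**Figure D4:**
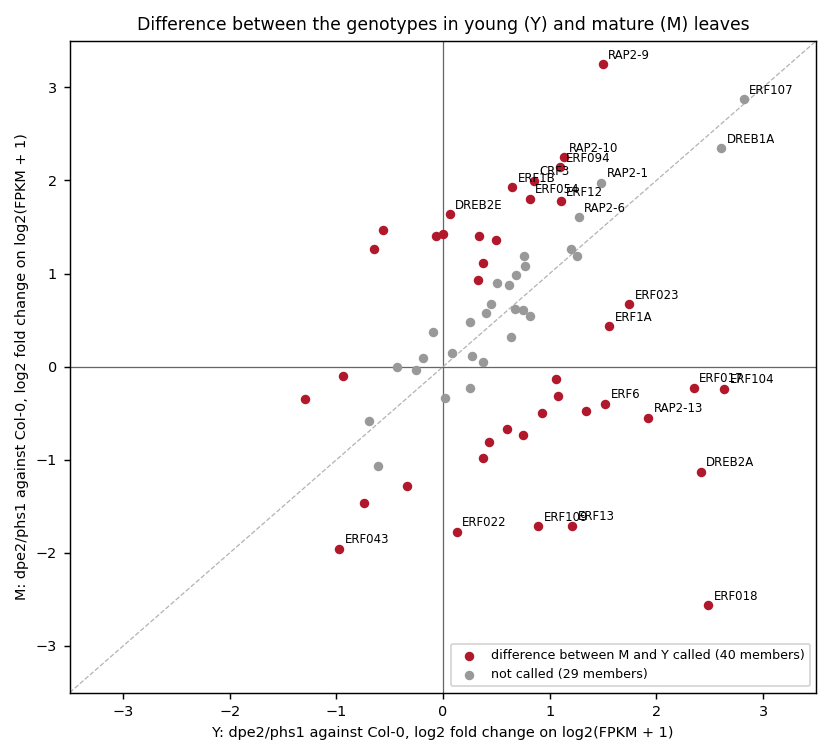
Log2 fold change of dpe2/phs1 against Col-0 in young leaves (x axis) and in mature leaves (y axis) for the 69 tested members, in red for the 40 whose values differed between M and Y and in grey for the other 29. ERF018 and DREB2A lie at the lower right, RAP2-9 at the top, and ERF107 and DREB1A near the dashed line of equal values.

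A second pattern was a rise in the mutant in both kinds of leaf. ERF107 (DEWAX), a repressor of wax synthesis genes, had 75.4, 60.2 and 72 FPKM in dY, against 8.57, 8.66 and 9.54 FPKM in wY. In mature leaves it had 124, 133 and 133 FPKM in dM, against 18.3, 15.1 and 17.5 FPKM in wM. The groups were far apart, by 2.82 ± 0.10 in Y and 2.87 ± 0.10 in M (adjusted p = 5.87e-16 and 2.53e-16), and the difference between M and Y was 0.05 ± 0.15. ERF107 and ERF104 are the closest tested neighbours among the members, 832 bases apart on chromosome 5 and on the same strand, and were raised by 2.82 and 2.64 in Y, whereas in M ERF107 was at 2.87 and ERF104 at -0.24.

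DREB1A (CBF3), a main activator of cold acclimation, had 5.48, 4.79 and 5.11 FPKM in dP, against 0.606, 0.625 and 0.73 FPKM in wP. It had 11.9, 9.38 and 9.27 FPKM in dY, against 0.562, 1.15 and 0.812 FPKM in wY, and 14.3, 13.8 and 15.7 FPKM in dM, against 1.99, 2.25 and 1.96 FPKM in wM. In all of these the mutant libraries lay well above Col-0, by 1.89 ± 0.14, 2.61 ± 0.14 and 2.35 ± 0.14 in P, Y and M. In the Recovery Period the order was turned, with 12.2, 10.4 and 11.5 FPKM in dR, against 24.1, 29.2 and 35.5 FPKM in the libraries labelled wR, and a log2 fold change of -1.29 ± 0.14 (adjusted p = 1.32e-07). The levels of dM and dR were thus close, and the libraries labelled wR were the highest of all groups.

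The DEAR and A-5 group joins a DREB domain to an EAR repression motif in most of its proteins. Of its 7 tested members 5 were higher in dP, 6 in dY and 5 in dM, where 24.3%, 34.6% and 36.6% of all genes were, and 2 were lower in dM, where 32.5% of all genes were. RAP2-9 (DEAR5) had 30.1, 25.8 and 33.6 FPKM in dM, against 2.33, 2 and 2.36 FPKM in wM. This log2 fold change of 3.25 ± 0.14 (adjusted p = 8.47e-15) was the largest rise of any tested member in M. In young leaves RAP2-9 had 3.59, 3.23 and 2.69 FPKM in dY, against 0.298, 0.559 and 0.577 FPKM in wY, so that the rise with leaf age was 2.88 ± 0.14 in dpe2/phs1 and 1.13 ± 0.14 in Col-0. RAP2-10 (DEAR4) had 15.9, 14.7 and 19 FPKM in dM, against 2.96, 2.41 and 2.65 FPKM in wM. It did not change with leaf age in Col-0 by the test, at 0.09 ± 0.16, and rose by 1.21 ± 0.16 in the mutant. RAP2-1, a repressor that acts at the DRE, was higher by 1.74 ± 0.18, 1.48 ± 0.18 and 1.98 ± 0.18 in P, Y and M, and ERF011 (CEJ1) by 0.86 ± 0.24, 1.26 ± 0.24 and 1.19 ± 0.24. ERF008 (DEAR3) went against its relatives, with 4.78, 5.5 and 7.55 FPKM in dM, against 15.9, 15 and 16.2 FPKM in wM, a log2 fold change of -1.29 ± 0.19.

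Among the group IX factors, ERF094 (ORA59) and ERF1B (ERF1) are the activators through which jasmonate and ethylene together switch on the plant defensin genes. ERF094 had 13.6, 17 and 22.1 FPKM in dM, against 3.6, 2.89 and 2.96 FPKM in wM, and 2.04, 2.13 and 2.3 FPKM in dY, against 0.48, 0.367 and 0.583 FPKM in wY. ERF1B had 6.4, 7.4 and 6.96 FPKM in dM, against 1.27, 0.794 and 1.22 FPKM in wM. Both rises in M, of 2.14 ± 0.17 and 1.93 ± 0.15, exceeded those in Y, with contrasts of 1.04 ± 0.23 and 1.28 ± 0.21. ERF096 was detected in leaves of dM, at 1.17, 2.02 and 1.96 FPKM, and was at 0 in every library of wM, wY and dY, so that dM was at least 15.7-fold higher than wM. ERF096 passed the filter through dM alone, so that its difference there, which is counted below, is a description. Counted over the group, 9 of 10 tested members were higher in dY and 0 lower, against 34.6% and 19.1% of all genes, and in dM 7 were higher and 2 lower, ERF13 and ERF6, against 36.6% and 32.5%. With the length trend removed 4 were higher and 3 lower in dM.

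**Figure D5:**
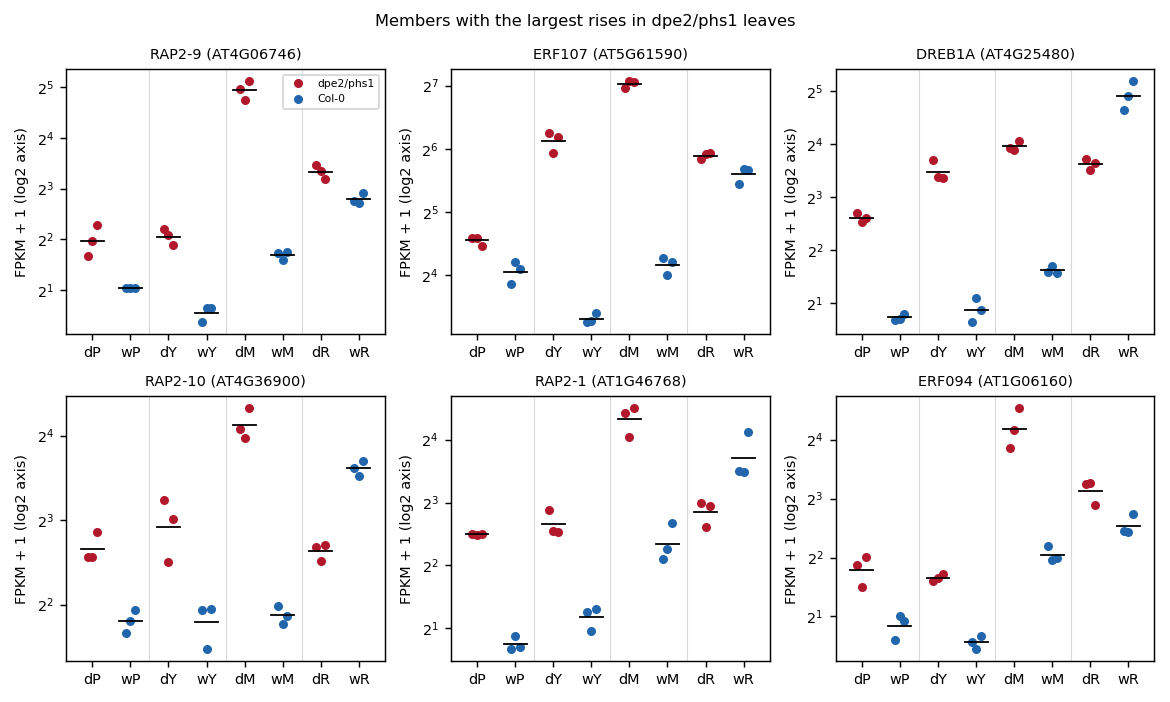
FPKM + 1 of RAP2-9, ERF107, DREB1A, RAP2-10, RAP2-1 and ERF094 in each library (points, log2 axis) with the mean on the log scale (line), for dpe2/phs1 (red) and Col-0 (blue) in P, Y, M and R. The libraries of dY and dM lie above those of wY and wM in every panel, and in R DREB1A, RAP2-10 and RAP2-1 are lower in dR than in the libraries labelled wR.

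The cytokinin response factors, which carry a protein motif of their own beside the AP2 domain and are partly induced by cytokinin, gave 7 of 9 tested members higher in dP, 5 in dY and 5 in dM, with 1 lower in any of these, CRF1 in dY. Of all genes 24.3%, 34.6% and 36.6% were higher in these comparisons, and with the length trend removed 2 of the 9 were higher and 2 lower in dY. CRF3 had 5.31, 5.36 and 5.61 FPKM in dM, against 0.366, 0.734 and 0.768 FPKM in wM, a rise of 1.99 ± 0.16. CRF4 differed by period, with 6.94, 5.73 and 6.55 FPKM in dP, against 1.66, 1.65 and 2.06 FPKM in wP, a log2 fold change of 1.41 ± 0.15, and values of -0.19 ± 0.15 in Y and 0.09 ± 0.15 in M that did not pass the test. CRF5 rose in P and M but not in Y, by 0.79 ± 0.13 and 1.40 ± 0.13, with -0.06 ± 0.13 in Y. In dpe2/phs1 3 of these 9 members were higher in dM than in dY and 3 lower, against 26.5% and 41.2% of all genes, and in Col-0 0 were higher in wM than in wY and 6 lower, against 18.8% and 25.2%. With CRF6 and ERF069 (CRF7) included, which were not counted as members, 11 were tested. Of these 5 were higher and 3 lower in dM than in dY, and 1, CRF6, was higher and 7 lower in wM than in wY.

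The group VII factors have proteins that are stabilised when oxygen is low. Of the 4 members of this group RAP2-12, RAP2-3 and RAP2-2 were tested, and ERF071 (HRE2) did not pass the filter, with a mean of 0.149 FPKM in dM and 0 in all libraries of wM. RAP2-12 had 119, 125 and 109 FPKM in dM, against 40.8, 40.8 and 44.2 FPKM in wM, and 33.5, 43.6 and 40.8 FPKM in dY, against 58.4, 59.7 and 56.1 FPKM in wY. It was thus higher in mature and lower in young mutant leaves, by 1.46 and -0.56 with an SE of 0.09 each, and the contrast was 2.03 ± 0.13 (adjusted p = 7.9e-11). ERF039 shared this combination, with 9.07, 9.66 and 10.2 FPKM in dM, 3.39, 2.82 and 4.17 FPKM in wM, 4.87, 4.57 and 5.69 FPKM in dY and 7.95, 8.49 and 8.95 FPKM in wY. RAP2-2 was higher in both leaf ages, by 0.68 ± 0.16 in Y and 0.62 ± 0.16 in M, and did not differ in P, at 0.00 ± 0.16 (adjusted p = 0.999). RAP2-3 had 91.8, 97.1 and 123 FPKM in dM, against 45.5, 43.6 and 45.4 FPKM in wM. Its fold change was turned in the Recovery Period, where it had 69.9, 61.3 and 59 FPKM in dR, against 240, 205 and 201 FPKM in the libraries labelled wR, a value of -1.75 ± 0.17.

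Some members of the DREB2, RAP2.4, group VIII and group X subgroups had low levels that were highest in dM. DREB2E had 2, 2.27 and 2.56 FPKM in dM, against 0, 0.0462 and 0.118 FPKM in wM, and did not exceed 0.298 FPKM in any library of dY or wY. The A-6 gene ERF054 had 5.73, 5.72 and 4.64 FPKM in dM, against 0.855, 0.989 and 0.625 FPKM in wM. ERF053, also of A-6, had 2.33, 3.02 and 2.08 FPKM in dM, against 0.427, 0.233 and 0.266 FPKM in wM. DREB2E and ERF053 passed the filter through dM alone, so that their difference there is a description. ERF054 was higher in dY as well, by 0.81 ± 0.14. ERF12, an EAR repressor, had 3.56, 2.55 and 2.08 FPKM in dM and at most 0.0801 FPKM in wM, and RAP2-6 3.35, 1.75 and 2.48 FPKM in dM, against 0.24, 0.1 and 0.0853 FPKM in wM. Both were also higher in dY than in wY, ERF12 by 1.10 ± 0.17 and RAP2-6 by 1.27 ± 0.16, and the contrast between M and Y was 0.67 ± 0.24 for ERF12 (adjusted p = 0.0244) and 0.33 ± 0.23 for RAP2-6 (adjusted p = 0.233). RAP2-4, the most abundant of the A-6 members, was higher in both leaf ages, by 0.54 ± 0.11 in M and 0.82 ± 0.11 in Y, with 168, 165 and 159 FPKM in dM, against 108, 117 and 112 FPKM in wM, and 132, 108 and 115 FPKM in dY, against 68.1, 74.6 and 58 FPKM in wY.

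Another set was lower in mutant leaves of at least 1 age and not higher in the other. ERF043 had 2.33, 3.61 and 3.05 FPKM in dM, against 13.6, 13.1 and 16.6 FPKM in wM, and 6.92, 7.45 and 6.8 FPKM in dY, against 14.5, 14.1 and 15.9 FPKM in wY. It fell by 0.98 in Y and 1.95 in M with an SE of 0.16 each, and did not change with leaf age in Col-0 by the test. DREB3 (TINY2) had 1.13, 1.93 and 1.46 FPKM in dM, against 4.99, 5.75 and 7 FPKM in wM. ERF034 had 4.89, 5.79 and 5.92 FPKM in dM, against 12.7, 12 and 13.2 FPKM in wM. Both were lower in dY as well and higher in dP than in wP, DREB3 by 0.62 ± 0.16 and ERF034 by 0.64 ± 0.14 in P. ERF022 was detected mainly in wM, with 2.65, 2.88 and 3.29 FPKM there and 0.133, 0.0982 and 0.222 FPKM in dM, and no library of the other 6 groups exceeded 0.211 FPKM. It passed the filter through wM alone, so that its difference in M is a description. In young leaves CRF1, at 0.599, 1.28 and 1.36 FPKM in dY and 2.7, 3.48 and 2.63 FPKM in wY, and ERF042, at 0.459, 0.53 and 0.747 FPKM in dY and 3.64, 1.74 and 3.53 FPKM in wY, were lower, by -0.94 ± 0.16 and -1.29 ± 0.20. ERF014 was lower in dY, dM and dR.

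The remaining tested members changed by smaller amounts or at lower levels. ERF037 had 3.87, 3.1 and 3.11 FPKM in dY, against 0.815, 0.763 and 1.13 FPKM in wY, and 2.39, 2.65 and 1.9 FPKM in dM, against 0.289, 0.374 and 0.478 FPKM in wM, with no overlap in either leaf age. ERF060, of A-6, had 14.8, 13.8 and 14.4 FPKM in dM, against 5.6, 6.23 and 6.4 FPKM in wM, and was also higher in dP and dY. ERF106, of group IX, was abundant in every group, between 41 FPKM in a library of wP and 103 FPKM in a library of dR, and was higher in dY, dM and dR by at most 0.64 ± 0.13. ERF114, a group X factor known from tissue regeneration and branching, had 1.63, 1.36 and 1.48 FPKM in dM, against 0.228, 0.207 and 0.354 FPKM in wM. ERF027, ERF035 and ERF055 had their highest mean in the libraries labelled wR and were lower in dR, by -0.71 ± 0.19, -0.82 ± 0.17 and -0.67 ± 0.12, all below 1.1 FPKM in dR.

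In the Prior Period the changes were mostly rises of moderate size. Besides DREB1A, RAP2-1 and CRF4, the largest rises were those of ERF4, with 26.1, 22.3 and 26.9 FPKM in dP, against 7.53, 10.3 and 9.54 FPKM in wP, and of ERF023, with 7.45, 5.61 and 8.5 FPKM in dP, against 1.32, 2.5 and 2.76 FPKM in wP, both by 1.37, with an SE of 0.16 and 0.19. ERF15 followed, at 1.08 ± 0.17. The 2 members lower in dP were ERF003, with 2.58, 2.06 and 2.78 FPKM in dP and 4.11, 5.81 and 4.94 FPKM in wP, and ERF015, with 4.76, 5.66 and 4.96 FPKM in dP and 8.56, 9.15 and 7.32 FPKM in wP. Without dP replicate 1, wP replicate 1 or wP replicate 2 ERF015 missed the threshold, with an adjusted p of 0.0505 to 0.0586, and the count of lower members was then 1. Both genes were higher in dY than in wY.

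In the Recovery Period the falls were led by RAP2-3, given above, ERF014, with 0.353, 0.0597 and 0.239 FPKM in dR and 2.35, 2.58 and 3.67 FPKM in the libraries labelled wR, and ERF8, with 9.26, 7.52 and 8.03 FPKM in dR and 26.5, 26.3 and 29.5 FPKM in the libraries labelled wR. All 5 tested members of the EAR repressor group VIII were lower, as were 5 of 7 of the DEAR and A-5 group, where 25.2% of all genes were. With the length trend removed these counts were 4 of 5 and 2 of 7, against 27.3% of all genes. When group VIII genes that were not counted as members were included, 7 of 8 tested were lower without that removal. The 1 called higher was ERF10, by 0.36 ± 0.14. CRF2 was the largest rise, with 18.6, 15.1 and 16.8 FPKM in dR, against 7.76, 8.28 and 6.92 FPKM in the libraries labelled wR, a value of 1.04 ± 0.14. ERF056 followed at 0.84 ± 0.13. This comparison also carried a trend with gene length, since the 4893 shortest tested genes had a median log2 fold change of -0.25 and the 4893 longest 0.59. The median listed length was 1260 bases for the tested members and 1734 for all tested genes. With the length trend removed 16 of all members were higher and 20 lower in dR, against 26.1% and 27.3% of all genes, so that the excess of falls was smaller, and whether RNA quality had a part in it was not tested.

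The difference in R minus the difference in P, a contrast added after the data were seen, was called larger for 6 members and smaller for 35, against 25.3% and 26.6% of all genes. With the length trend removed these counts were 9 and 26, against 20.9% and 22.7%. The members higher in dP than in wP and lower in dR than in the libraries labelled wR numbered 13, where 6.29% of all genes had these calls, and DREB1A had the lowest value, -3.18 ± 0.19.

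With leaf age 34 of 69 members were higher and 16 lower in wM than in wY, against 18.8% and 25.2% of all genes. In dpe2/phs1 36 were higher and 13 lower in dM than in dY, against 26.5% and 41.2% of all genes, or 38 and 7 with quantile normalization, against 32.5% and 33.3%. These comparisons share libraries with those of the genotypes. In Col-0 the rises were led by ERF018, by 4.97 ± 0.22, ERF104, by 3.68 ± 0.14, and DREB2A, by 3.05 ± 0.19. In the mutant the same members gave -0.08 ± 0.22, 0.81 ± 0.14 and -0.50 ± 0.19, and the rises were led by RAP2-9, ERF094, by 2.53 ± 0.17, and RAP2-3, by 2.13 ± 0.17. DREB2F was lower with leaf age in both genotypes, by -1.76 ± 0.16 and -1.41 ± 0.16 in dpe2/phs1 and Col-0, and SHN2, an activator of cuticle genes, by -1.34 ± 0.18 and -1.80 ± 0.18. In mutant shoots 23 members were higher and 4 lower in dR than in dP, against 13.5% and 22.1% of all genes, led by RAP2-3 at 1.58 ± 0.17, ERF011 at 1.45 ± 0.24 and ERF003 at 1.40 ± 0.14.

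The genes these factors are known to act on were taken from lists of textbook targets, and the lists differed in how their calls stood to the shares of all genes. Of 11 DRE genes 10 were higher and 0 lower in dP, 10 and 0 in dY, 8 and 2 in dM, and 1 and 8 in dR. Over all genes the shares higher and lower were 24.3% and 14.9% in dP, 34.6% and 19.1% in dY, 36.6% and 32.5% in dM, and 31.6% and 25.2% in dR, also for the lists that follow. XERO2 (LTI30), a dehydrin, averaged 87.3 FPKM in dY and 2.78 FPKM in wY, 177 FPKM in dM and 3.00 FPKM in wM, and 16.1 FPKM in dR and 52.4 FPKM in the libraries labelled wR. Of 6 GCC box genes 5 were higher in dP, 6 in dY and 6 in dM, and 0 lower in these, with 3 higher and 2 lower in dR. CHI-B, a basic chitinase, averaged 61.5 FPKM in dM and 1.2 FPKM in wM. Of 7 tested genes of the response to low oxygen 2 were higher and 3 lower in dP, 2 and 2 in dY, 4 and 1 in dM, and 0 and 6 in dR. ADH1, alcohol dehydrogenase, averaged 76.2 FPKM in dM and 2.97 FPKM in wM. Among 15 upstream regulators of the family 1 was higher and 2 were lower in dP, with 0 and 1 in dY, 3 and 6 in dM, and 7 and 2 in dR. The counts of the target and regulator lists are given without removal of the length trend. In dR the 4893 shortest tested genes had a median log2 fold change of -0.25 and the 4893 longest 0.59. In dM these medians were 0.29 and -0.35. Whether gene length had a part in the counts of these lists was not tested.

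Members that did not pass the filter were near the limit of detection, with every group mean below 1 FPKM. ERF020 reached 1.78 FPKM in a library of dM, with 0.572 FPKM in both other libraries, and at most 0.0799 FPKM in wM. ABR1, a repressor of abscisic acid responses, had 0.44, 0.942 and 0.758 FPKM in dM, against 0, 0 and 0.0544 FPKM in wM, without a test. The shoot meristem genes ESR1 and ESR2 (DRN and DRNL) stayed at or below 0.33 FPKM in every library.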

How the data were processed

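Total RNA was sequenced on an Illumina instrument from 24 libraries, 3 in each of 8 groups, and groups were taken from the sample labels. The methods call the 3 libraries of a group biological replicates. The authors mapped reads with HISAT2 to the TAIR10 genome, with CASAVA and featureCounts also named in the submitters' processing notes, and deposited FPKM values of 33044 genes, 1 column per library, without pooling. Their own test was run with DESeq2 on counts, which were not used here. No strand setting was given in the sources used here, so overlapping antisense genes cannot be told apart.

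All values were computed from the deposited FPKM. Low FPKM values are whole multiples of what 1 read is worth, which gave the total reads of each library. These were 17504383 to 27859805 with a median of 19438279. With the listed gene lengths 56.7% of the nonzero values were whole within 0.02 reads. For genes with values that were not whole, a length was searched that made all values of the gene whole. Reads were recovered in this way for 26316 of 26453 detected genes (99.5%), a share that the search itself raises and that is no check of the reads. Limits set by 3 reads cover counting error only. limma 3.58.1 in R 4.3.3 was fitted to log2(FPKM + 1) over all 24 libraries with 1 mean per group, a trended prior and no block, for 19575 genes with a mean of at least 1 FPKM in at least 1 group, with Benjamini-Hochberg adjustment over all of them. Such fold changes understate the change of low genes and depend on the pseudocount where a group is at 0. The script was tested on simulated data. Other steps used Python 3.11.15, pandas 2.3.3, numpy 2.4.6 and, for plots, matplotlib 3.10.9. Promoter windows came from the RefSeq assembly TAIR10.1, in which all 95 members had the deposited coordinates.

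The members and the lists of subgroups, targets, regulators and markers were chosen with earlier results of these data known. Members on a list could be named, and so could the 10 largest rises and falls of each comparison among called members without overlap, which were followed through the alternatives. ERF020, ERF027, ERF037 and ERF087 fell outside both and were chosen after their values were seen. These left out each library in turn, fitted only the groups compared, added the replicate number as a block, or ran voom on recovered reads. Others used a pseudocount of 0.1, dropped the filter or raised it to 5 FPKM, rescaled by median of ratios, normalized by quantiles, or removed the dependence on gene length (loess, span 0.3). A fit without the libraries labelled wR and the contrast of R with P were added after the data were seen. Replicate numbers of the labels were not used as pairs.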

Additional observations from a re-analysis of the deposited data

Results flagged for a closer look

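The effect of the genotype had the opposite sign in mature and in young leaves for 15 members, with each effect and the difference between them called in the limma fit. The difference, M minus Y in log2, for the members that were higher in dY and lower in dM was -5.05 for ERF018, -3.55 for DREB2A, -2.92 for ERF13, -2.61 for ERF109, -2.47 for RAP2-13, -1.92 for ERF6 and -1.81 for ERF003. In the rest of these 13 members it was -1.48 for ERF016, -1.43 for ERF4, -1.39 for ERF056, -1.36 for DREB1F, -1.27 for ERF013 and -1.24 for ERF8. For the members that were lower in dY and higher in dM it was 1.91 for ERF039 and 2.03 for RAP2-12. The adjusted p of the difference was at most 0.00012 in all 15. For ERF109 and DREB1F the difference is a description, since they passed the filter through wM alone.

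Between the Recovery and the Prior Period the effect of the genotype also had opposite signs, in a contrast that rests on the libraries labelled wR. The difference, R minus P in log2, was -3.18 for DREB1A, -2.60 for ERF023, -2.59 for RAP2-1, -2.43 for ERF4, -2.06 for ERF039, -1.84 for RAP2-10 and -1.65 for ERF011, all higher in dP and lower in dR. The other members with these directions gave -1.45 for ERF034, -1.26 for DREB3, -1.18 for ERF070, -1.11 for ERF1B, -1.01 for ERF7 and -0.96 for ERF061. ERF015 was lower in dP and higher in dR, with a difference of 1.13. Its fall in dP was lost without dP replicate 1, wP replicate 1 or wP replicate 2, at log2 fold changes of -0.589 to -0.545 and adjusted p in limma of 0.0505 to 0.0586, where it was -0.61 with every library. Its rise in dR, of 0.53, was lost without dR replicate 3, wR replicate 2 or wR replicate 3, at adjusted p in limma of 0.0504 to 0.0852, with quantile normalization, at 0.299 and an adjusted p of 0.209, and with voom on recovered reads, at an adjusted p of 0.0521.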

How the results depend on the processing

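Of 308 recomputed counts of members, 292 stayed within 1.5 times the count reported, and no named difference reversed in 2559 refits of 153 differences, with 2534 on the same side of the threshold and 25 past it no longer. Of these 25, 12 came from leaving out a library and 9 from quantile normalization. The counts that moved were small ones. The 2 members lower in dP became 4 with no filter, 4 with quantile normalization and 6 with the length dependence removed, and ranged from 1 to 4 when a library was left out, with 1 without dP replicate 1, wP replicate 1 or wP replicate 2 and 4 without wP replicate 3. With the filter of 5 FPKM, which tests fewer genes, 5 members were lower in dY, 12 lower in dM, 8 higher in dR and 2 lower in dR than in dP, and 3 had a larger effect in R than in P. The 13 members lower in dM than in dY became 7 with quantile normalization. The 4 lower in dR than in dP became 2 with median-of-ratios rescaling and 2 with quantile normalization, and ranged from 2 to 5 when a library was left out, with 2 without dP replicate 1. The cause was not tested where none is given. Median-of-ratios rescaling gave a median of all genes of 0.010 in dY against wY, where it was 0.153, and of 0.046 in dM against dY, where it was -0.164, with 39 members higher and 10 lower in each. With a replicate block the counts were 28 higher and 2 lower in dP, 46 and 9 in dY, 36 and 19 in dM, and 12 and 27 in dR. No shares of all genes are given for the block, the filter of 5 FPKM or median-of-ratios rescaling. Those counts show only how the calls of the members moved. Deviations of libraries with the same number correlated between -0.411 and 0.16, so that the numbers do not pair the libraries. A fit without the libraries labelled wR kept all 119 differences it could give. Depth limits members below 0.108 to 0.171 FPKM, the level of 3 reads on 1 kb in these libraries.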

Other observations

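Family genes whose description is worded otherwise were not counted as members, and several had large differences. ERF113 (RAP2.6L), a group X factor known from wound regeneration, averaged 17.1 FPKM in dM and 0.341 FPKM in wM, a log2 fold change of 3.76 ± 0.13 (SE), and 4.08 FPKM in dY and 0.196 FPKM in wY. CRF6, a cytokinin response factor linked to leaf senescence, averaged 33.4 FPKM in dM and 6.13 FPKM in wM. DREB2C averaged 9.67 FPKM in dM and 0.936 FPKM in wM, and was called higher in all 4 comparisons of the genotypes. The other CBF genes did not share one order: DREB1C (CBF2) averaged 6.9 FPKM in dY and 0.0339 FPKM in wY, and 9.99 FPKM in dM and 6.51 FPKM in wM, while DREB1B (CBF1) averaged 4.36 FPKM in dM and 10.5 FPKM in wM, a log2 fold change of -1.09 ± 0.13. ERF5, a group IX factor like ERF6, averaged 7.21 FPKM in dY and 2.36 FPKM in wY, and 13.3 FPKM in dM and 25.0 FPKM in wM. Of the 35 further AP2 rows that were tested, 22 were higher and 3 lower in dY, 19 and 8 in dM, 14 and 5 in dP, and 9 and 14 in dR. Over all genes 34.6% were higher and 19.1% lower in dY, 36.6% and 32.5% in dM, 24.3% and 14.9% in dP, and 31.6% and 25.2% in dR. These rows also hold AP2-domain genes that are not ERF or DREB factors, such as AP2, ANT and WRI1.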
